A study of Caenorhabditis elegans with 6 samples.

Results

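The genes described here are the acyl-CoA synthetase (acs), acyl-CoA dehydrogenase (acdh), acyl-CoA oxidase (acox), carnitine palmitoyltransferase (cpt), lipase (lipl), enoyl-CoA hydratase (ech) and lipid binding protein (lbp) genes of Caenorhabditis elegans. They were chosen by name, as every listed gene called by one of these 7 family names and a number, with ech-8 and ech-9 left out. The rule found 64 of the 41573 gene names in the tables, of which 53 had at least 1 read and 46 passed the filter on low counts and were tested. RNA came from whole larvae of the strains hs::control and hs::lin-29, with 3 libraries each. In both strains, synchronized animals were raised at 20 °C on E. coli OP50, were heat-shocked as L3 larvae at 28 h of feeding for 30 min at 37 °C, and were collected after 1 h of recovery at the growth temperature. The heat shock serves to induce the transcription factor gene lin-29 early. The labels do not give the promoter, the genetic background or what the control strain carries, and no library without heat shock was analysed here.

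Fat is broken down in steps that these families follow in order. Lipases free fatty acids from stored or engulfed lipid, lipid binding proteins carry them, and acyl-CoA synthetases join them to coenzyme A. Carnitine palmitoyltransferases bring long chains into mitochondria. There acyl-CoA dehydrogenases, and in peroxisomes acyl-CoA oxidases, make the first double bond of each round of beta-oxidation, to which enoyl-CoA hydratases add water. In the worm the intestine is the main fat store, and the epidermis and muscle use the same reactions. Peroxisomal beta-oxidation also shortens the side chains of ascarosides, the worm's pheromones.

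The libraries held 14553652 to 17303509 counts in genes. The gene lin-29 ranged from 43.8 to 49.8 CPM (counts scaled to a common library size) among the controls, and its replicates 1 to 3 in hs::lin-29 reached 131, 517 and 339 CPM, so replicate 1 carried the smallest rise. On the second principal component replicate 1 of hs::control scored 45.7 and the other controls -21.4 and -17.7. Whether the trials of the labels were separate cultures is not said, so the spread behind the p-values is that of these libraries and may be technical.

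Few of the 46 genes passed the threshold for a difference between the strains. In edgeR's quasi-likelihood test, adjusted by Benjamini-Hochberg over all 13045 genes tested, 4 passed 0.05: acs-7, acs-12 and lbp-5 fell in hs::lin-29 and acdh-6 rose. This is 8.70% of the 46, beside 6.60% of all genes tested. By direction, 2.46% of all genes tested were called higher and 4.14% lower. The libraries of the strains did not overlap in 11 of the 46 (23.9%), beside 23.2% of all genes tested. Both shares lie near the background. Across the 46 the median log2 fold change was -0.06, with 28 below 0 (60.87%) and 18 above. Over all genes tested the median was 0.01, with 48.56% below 0. For 25 of the 46 (54.3%) the 95% interval of the fold change lay within 1.5-fold in both directions, beside 49.2% of all genes tested. Fewer cells of a tissue and less RNA per cell cannot be told apart in whole-body RNA.

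**Figure D1:**
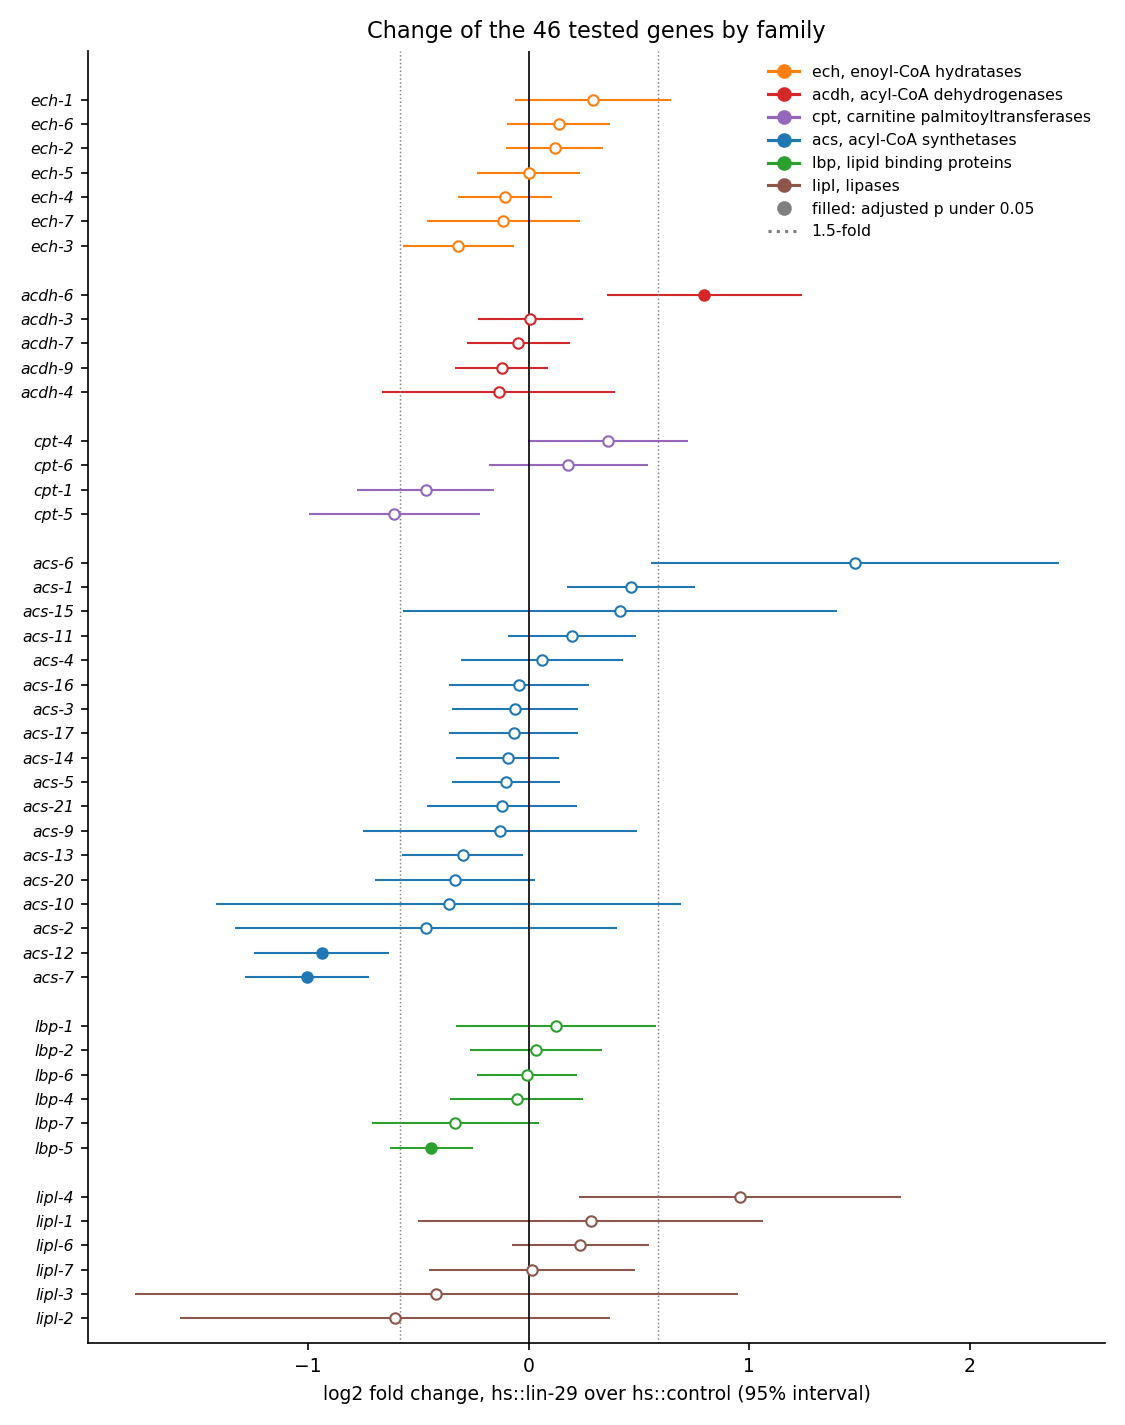
Log2 fold change of hs::lin-29 over hs::control for the 46 tested genes, grouped by family, with 95% intervals from edgeR and dotted lines at 1.5-fold. Filled points mark the 4 genes past an adjusted p of 0.05: acs-7, acs-12 and lbp-5 lie to the left of 0 and acdh-6 to the right.

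The families differed widely in level, which is compared here as CPM per kilobase (kb) of annotated exon. The 2 most abundant genes were lbp-6, at 682 ± 53.996 CPM per kb in hs::control and 678 ± 10.6 in hs::lin-29 (SD, n = 3), and ech-6, at 567 ± 35.5 and 623 ± 32.0. They made up 52.0% of the summed level of the measured lbp genes and 65.7% of that of the ech genes with a length. Genes listed at 0 in every library count as not measured and are left out of these sums and of all rankings by level. Next came lbp-2, at 272.4 ± 23.1 and 279 ± 44.0 CPM per kb, and acdh-7, at 187 ± 18.0 and 181 ± 5.30. The lipases were the least abundant of the measured families. The highest of them, lipl-6, reached 12.6 ± 1.32 CPM per kb in hs::control and 14.8 ± 2.25 in hs::lin-29. The acs levels were the most evenly spread at the top, where acs-7 held 15.6% of the sum of the measured acs genes. The acs means over the 6 libraries ran from 97.6 down to 0.0337 CPM per kb.

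**Figure D2:**
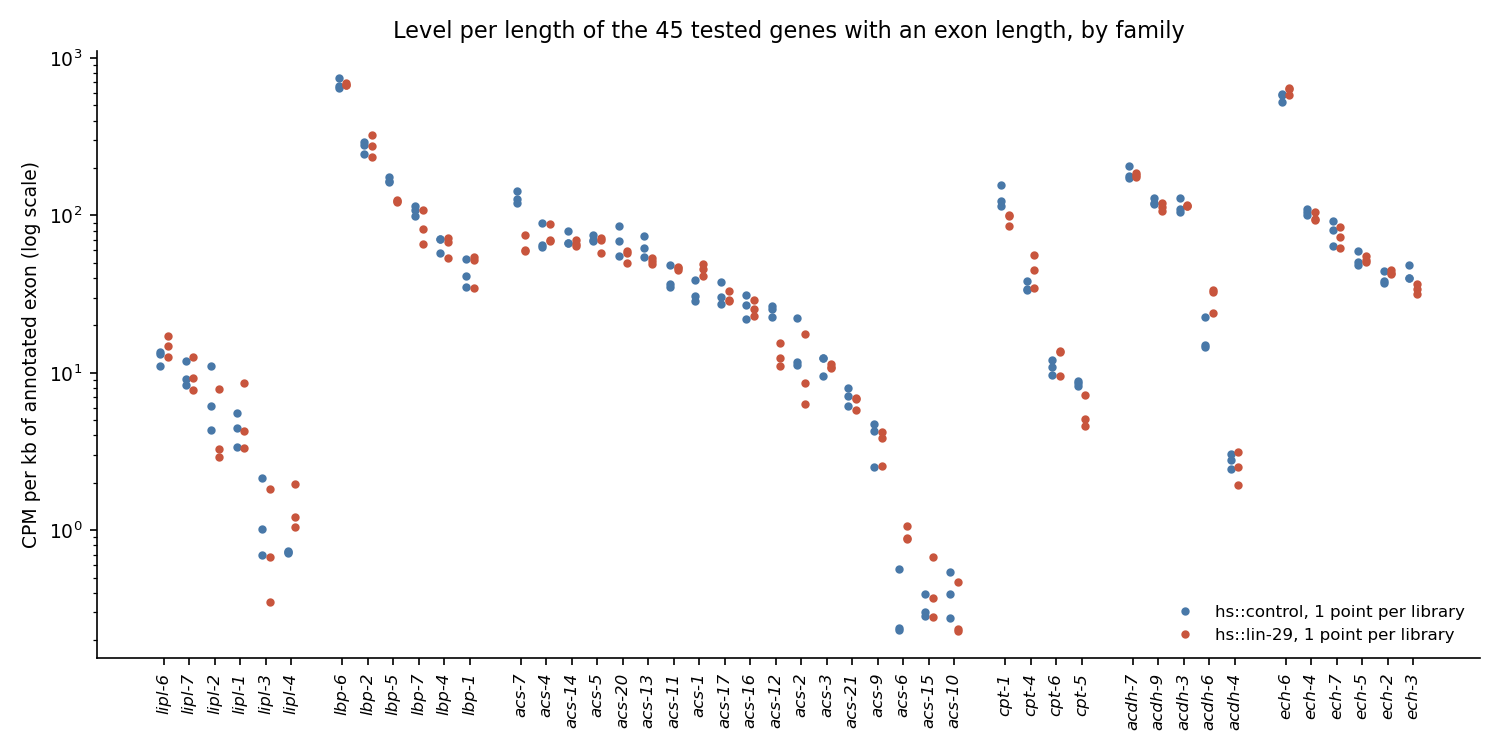
CPM per kb of annotated exon, on a log axis, for the 45 tested genes with an exon length, 1 point per library, ordered by level within each family. The points of lbp-6 and ech-6 stand highest, and acs-7, acs-12 and acdh-6 are among the 11 genes whose strains do not overlap.

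Of the lipases, 6 of 8 genes were tested and none passed by edgeR, DESeq2 or limma-voom, with 1 (lipl-4) at an unadjusted p under 0.05. The median log2 fold change was 0.13, with 4 genes above 0. lipl-4, a lysosomal lipase known for a lipid signal that extends lifespan, measured 1.21, 1.21 and 1.18 CPM in hs::control against 3.24, 1.73 and 2.00 CPM in hs::lin-29. The strains did not overlap, and replicate 1 of hs::lin-29 was the highest. The log2 fold change of 0.96 (SE 0.32) did not pass (adjusted p 0.137 by edgeR), at a level of only 17 to 54 counts per library. Its partner lbp-8, which carries that signal to the nucleus, did not exceed 4 counts per library. lipl-6 (log2 fold change 0.23, SE 0.14) and lipl-7 (0.02, SE 0.21) had intervals within 1.5-fold, so a larger change of these lipases lay outside the 95% interval.

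lipl-1, lipl-2, lipl-3 and the acyl-CoA synthetase gene acs-2 varied most between libraries of the same strain. acs-2, which acts in mitochondrial fat oxidation, rises on fasting under control of the nuclear receptor NHR-49, and lipl-1 and lipl-3 are lysosomal lipases that rise on fasting through HLH-30. In the order of replicates 1 to 3, acs-2 measured 23.4, 46.3 and 24.3 CPM in hs::control against 36.7, 13.2 and 17.9 CPM in hs::lin-29. lipl-2 measured 5.56, 14.04 and 7.84 CPM against 10.1, 3.74 and 4.19 CPM. lipl-3 measured 0.997, 3.07 and 1.46 CPM against 2.64, 0.504 and 0.972 CPM. In all of acs-2, lipl-2 and lipl-3 the highest library was replicate 2 of hs::control and the lowest was replicate 2 of hs::lin-29, and the strains overlapped. lipl-1 was highest in replicate 1 of hs::lin-29 (11.5 CPM), and among hs::control in replicate 3 (7.45 CPM).

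The spread of these genes was wide beside that of other genes. The pooled SD within a strain, on the log2(CPM + 0.5) scale, was 0.65 for acs-2, 0.53 for lipl-1, 0.68 for lipl-2 and 0.75 for lipl-3, above that of 94.5% to 98.4% of all genes tested. The median over the 46 genes was 0.19, as over all genes tested. Counts per library ran from 62 to 192 for lipl-1, 52 to 256 for lipl-2 and 7 to 56 for lipl-3. acs-2 had 184 to 845 counts per library. The spreads were not matched for level, and the part of depth in them was not tested. The order of libraries shared by acs-2, lipl-2 and lipl-3 (replicate 2, 3, 1 in hs::control and 1, 3, 2 in hs::lin-29) was chosen after the values were seen. It was also that of ech-3, and of 5.83% of all genes tested. None of the 4 wide genes passed (log2 fold changes -0.47, 0.28, -0.61 and -0.42 for acs-2, lipl-1, lipl-2 and lipl-3). The sign of the change of lipl-1 and of lipl-3 turned in at least 1 fit with a library left out, where lipl-1 ran down to -0.24 and lipl-3 up to 0.15. Food intake was not recorded in the labels, and its part in this spread was not tested.

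**Figure D3:**
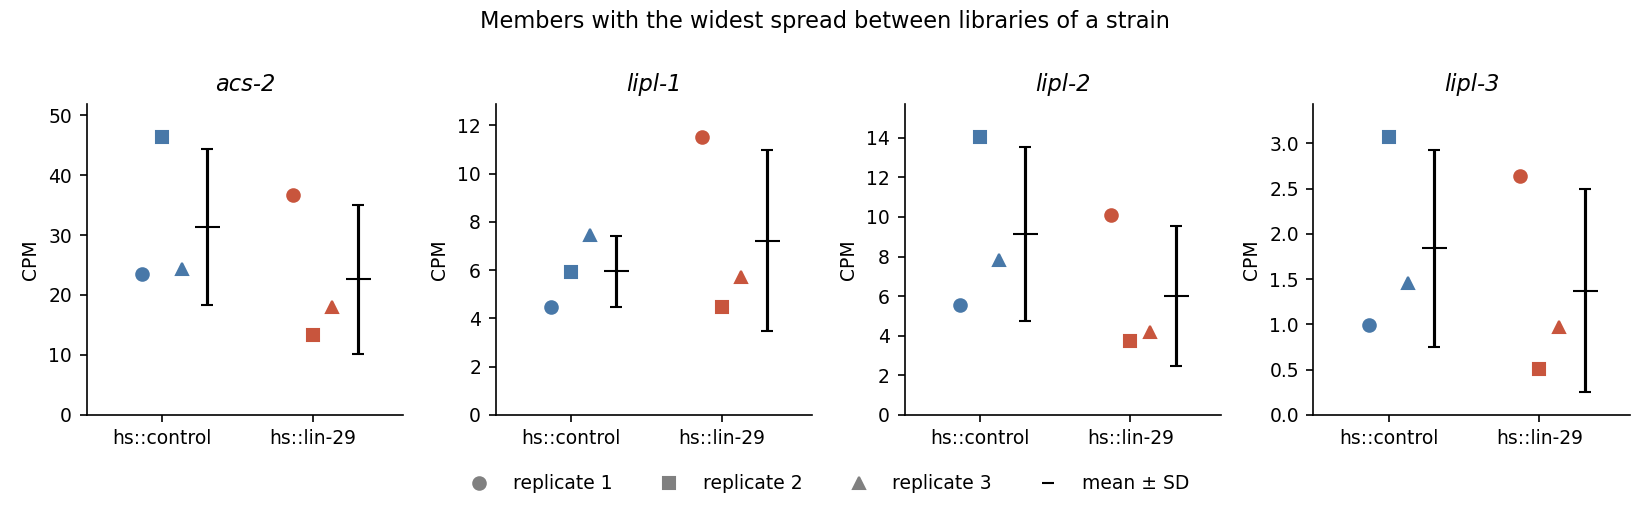
CPM of acs-2, lipl-1, lipl-2 and lipl-3 in each library, with 1 marker shape per replicate number and the mean ± SD of each strain in black. Replicate 2 of hs::control is the highest point for acs-2 (46.3 CPM), lipl-2 (14.04 CPM) and lipl-3 (3.07 CPM), and the strains overlap in all 4 panels.

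Of the lipid binding proteins, 6 of 9 genes were tested and lbp-5 fell. By edgeR this 1 call is 16.7% of the 6, beside 6.60% of all genes tested. lbp-5, a fatty acid binding protein that affects fat storage, measured 78.1, 85.1 and 79.3 CPM in hs::control against 59.8, 58.8 and 59.9 CPM in hs::lin-29. The strains were clearly separate and the hs::lin-29 libraries were nearly equal. The fall was 1.36-fold (log2 fold change -0.44, SE 0.08, edgeR adjusted p 0.0143). It was the smallest of the 4 calls, and it was lost without hs::control replicate 2 or 3 or hs::lin-29 replicate 2 or 3 (adjusted p 0.0525 to 0.0642; 0.00049 to 0.0862 across the 14 alternatives), with log2 fold changes of -0.42 to -0.46 in these fits.

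The other lbp genes did not pass. lbp-6 and lbp-2, the most abundant, had log2 fold changes of -0.01 (SE 0.10) and 0.03 (SE 0.13) and intervals within 1.5-fold, as did lbp-1 and lbp-4. lbp-7 measured 56.0, 59.7 and 51.2 CPM in hs::control against 56.2, 42.4 and 34.0 CPM in hs::lin-29, where replicate 1 alone lay within the range of hs::control. Its log2 fold change was -0.33 (SE 0.17), and -0.56 with an edgeR adjusted p of 0.0401 without hs::lin-29 replicate 1. Across the alternatives its adjusted p ran from 0.0401 to 0.672.

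The acyl-CoA synthetases held the largest changes. Of 21 genes 18 were tested, and 2 fell and none rose by edgeR. This is 11.1% of the 18, beside 6.60% of all genes tested. At an unadjusted edgeR p under 0.05, 3 were lower and 2 higher. DESeq2 and limma-voom each called 2 lower and 1 higher. acs-7, which takes part in making modified ascarosides, measured 214, 241 and 202 CPM in hs::control against 126, 99.2 and 102 CPM in hs::lin-29. Every hs::lin-29 library lay far under every hs::control library. The fall was 2.01-fold (log2 fold change -1.01, SE 0.12, edgeR adjusted p 0.00201). acs-7 had the highest level per length of the measured acs genes in hs::control, 130 ± 11.9 CPM per kb, and 64.9 ± 8.82 in hs::lin-29.

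acs-12 measured 44.8, 46.6 and 39.7 CPM in hs::control against 27.1, 21.9 and 19.4 CPM in hs::lin-29. The strains did not overlap. The fall was 1.92-fold (log2 fold change -0.94, SE 0.14, edgeR adjusted p 0.00407). The calls of acs-7 and acs-12 were the only ones among the 46 genes that held in all 14 alternative fits.

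acs-1 and acs-6 were higher in hs::lin-29 without passing. acs-1, which activates branched-chain fatty acids needed for larval growth, measured 93.0, 69.0 and 74.1 CPM in hs::control against 110, 117 and 98.7 CPM in hs::lin-29. The closest libraries were replicate 1 of hs::control and replicate 3 of hs::lin-29. Its log2 fold change was 0.47 (SE 0.13, adjusted p 0.0703 by edgeR), and it passed in 4 of 14 alternative fits, among them DESeq2 (0.0201) and the fit without hs::control replicate 1 (0.0136), over a range of 0.00268 to 0.231. acs-6 had only 8 to 33 counts per library, with 1.07, 0.439 and 0.448 CPM in hs::control and 1.68, 1.66 and 2.00 CPM in hs::lin-29. Its log2 fold change of 1.48 (SE 0.41, adjusted p 0.0705 by edgeR) was the largest of the 46 and had a 95% interval from 0.56 to 2.40. It passed in 3 of 14 alternative fits, at 0.0133 without hs::control replicate 1, over a range of 0.0133 to 0.246.

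The log2 fold changes of the remaining 14 tested acs genes lay between -0.47 (acs-2) and 0.41 (acs-15), and 9 of them had intervals within 1.5-fold. Of these, acs-4, with 206 ± 42.7 CPM in hs::control and 215 ± 31.2 in hs::lin-29, was at 0.06 (SE 0.16). acs-3, which acts in the epidermis and, through the nuclear receptor NHR-25, affects fat uptake and storage in the intestine, was at -0.06 (SE 0.13). acs-13 was at -0.30 (SE 0.12) with strains that did not overlap (adjusted p 0.226 by edgeR). acs-20, a fatty acid transport protein of the cuticle barrier, was at -0.33 (SE 0.16), with hs::control replicate 1 the highest library at 214 CPM and the other 5 between 124 and 172 CPM. Its relative acs-22 reached no more than 11 counts per library and was left untested.

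Summed over the 20 measured acs genes, the level was 1535, 1444 and 1372 CPM in hs::control and 1279, 1313 and 1207 CPM in hs::lin-29. These sums did not overlap, and an exact two-sided permutation test gave p = 0.1, the smallest that 3 against 3 libraries allow. Without acs-7, a sum formed after the values were seen, they were 1171 to 1321 CPM and 1105 to 1213 CPM and did overlap. The sums of the other 5 measured families overlapped between the strains (exact permutation p from 0.2 to 0.8).

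Of the carnitine palmitoyltransferases, 4 of 6 were tested and none passed by edgeR or limma-voom. Both cpt-1 and cpt-5 were lower at an unadjusted p under 0.05 and by DESeq2 (adjusted p 0.0176 and 0.0263). cpt-1, which catalyses the entry step of long chains into mitochondria, measured 321, 439 and 345 CPM in hs::control against 276, 283 and 240 CPM in hs::lin-29. The strains did not overlap, and replicate 2 of hs::control was the highest. Its log2 fold change was -0.47 (SE 0.14, adjusted p 0.0883 by edgeR). Over the alternatives its adjusted p ran from 0.00979 to 0.277, and it passed in 3 of 14.

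cpt-5 measured 19.7, 18.7 and 20.3 CPM in hs::control against 10.5, 16.5 and 11.7 CPM in hs::lin-29. The strains did not overlap, with replicate 2 of hs::lin-29 nearest to hs::control. Its log2 fold change was -0.61 (SE 0.17, adjusted p 0.0755 by edgeR), and it passed in 3 of 14 alternatives, at 0.0185 without hs::lin-29 replicate 2, over a range of 0.011 to 0.224. cpt-4 and cpt-6 had log2 fold changes of 0.36 (SE 0.16) and 0.18 (SE 0.16). cpt-4 measured 77.5, 78.9 and 88.7 CPM in hs::control against 80.8, 130 and 105 CPM in hs::lin-29, so that replicate 1 of hs::lin-29 lay among hs::control.

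Of the acyl-CoA dehydrogenases, 5 of 12 were tested, acdh-6 rose and none fell, whether by edgeR, at an unadjusted p under 0.05, by DESeq2 or by limma-voom. By edgeR this 1 call is 20.0% of the 5, beside 6.60% of all genes tested. acdh-6 measured 30.1, 19.4 and 19.9 CPM in hs::control against 45.01, 43.2 and 32.0 CPM in hs::lin-29. The strains did not overlap, but replicate 1 of hs::control and replicate 3 of hs::lin-29 were close. The rise was 1.74-fold (log2 fold change 0.80, SE 0.19, edgeR adjusted p 0.0462). It was lost without hs::control replicate 2 or 3 or hs::lin-29 replicate 1 or 2 (adjusted p 0.116 to 0.172; 0.00328 to 0.172 across the 14 alternatives), while the log2 fold change stayed at 0.67 or more.

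The more abundant acdh-7, acdh-9 and acdh-3 had log2 fold changes of -0.05 (SE 0.10), -0.12 (SE 0.09) and 0.01 (SE 0.11), all with intervals within 1.5-fold. acdh-7, related to the mammalian medium-chain dehydrogenase, measured 251 ± 24.2 CPM in hs::control and 243 ± 7.13 in hs::lin-29. acdh-9 measured 165 ± 7.41 and 151 ± 8.22 CPM. acdh-4 was low, at 42 to 66 counts per library, with a log2 fold change of -0.14 (SE 0.23).

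The 7 enoyl-CoA hydratase genes were all tested. None passed by edgeR, DESeq2 or limma-voom, with ech-3 at an unadjusted p under 0.05, and the median log2 fold change was -0.0007. ech-6, a mitochondrial hydratase that also serves the breakdown of propionate, measured 603, 590 and 535 CPM in hs::control against 649, 655 and 595 CPM in hs::lin-29. The strains overlapped, and its log2 fold change was 0.14 with a 95% interval from -0.10 to 0.37. ech-4, second per length, stood at 133 ± 6.55 and 124 ± 7.66 CPM. ech-3 measured 40.0, 48.4 and 40.2 CPM in hs::control against 37.0, 31.8 and 34.4 CPM in hs::lin-29, without overlap, at a log2 fold change of -0.32 (SE 0.11, adjusted p 0.15 by edgeR). ech-1 was at 0.29 (SE 0.16), the only one of the 7 whose interval reached past 1.5-fold.

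**Figure D4:**
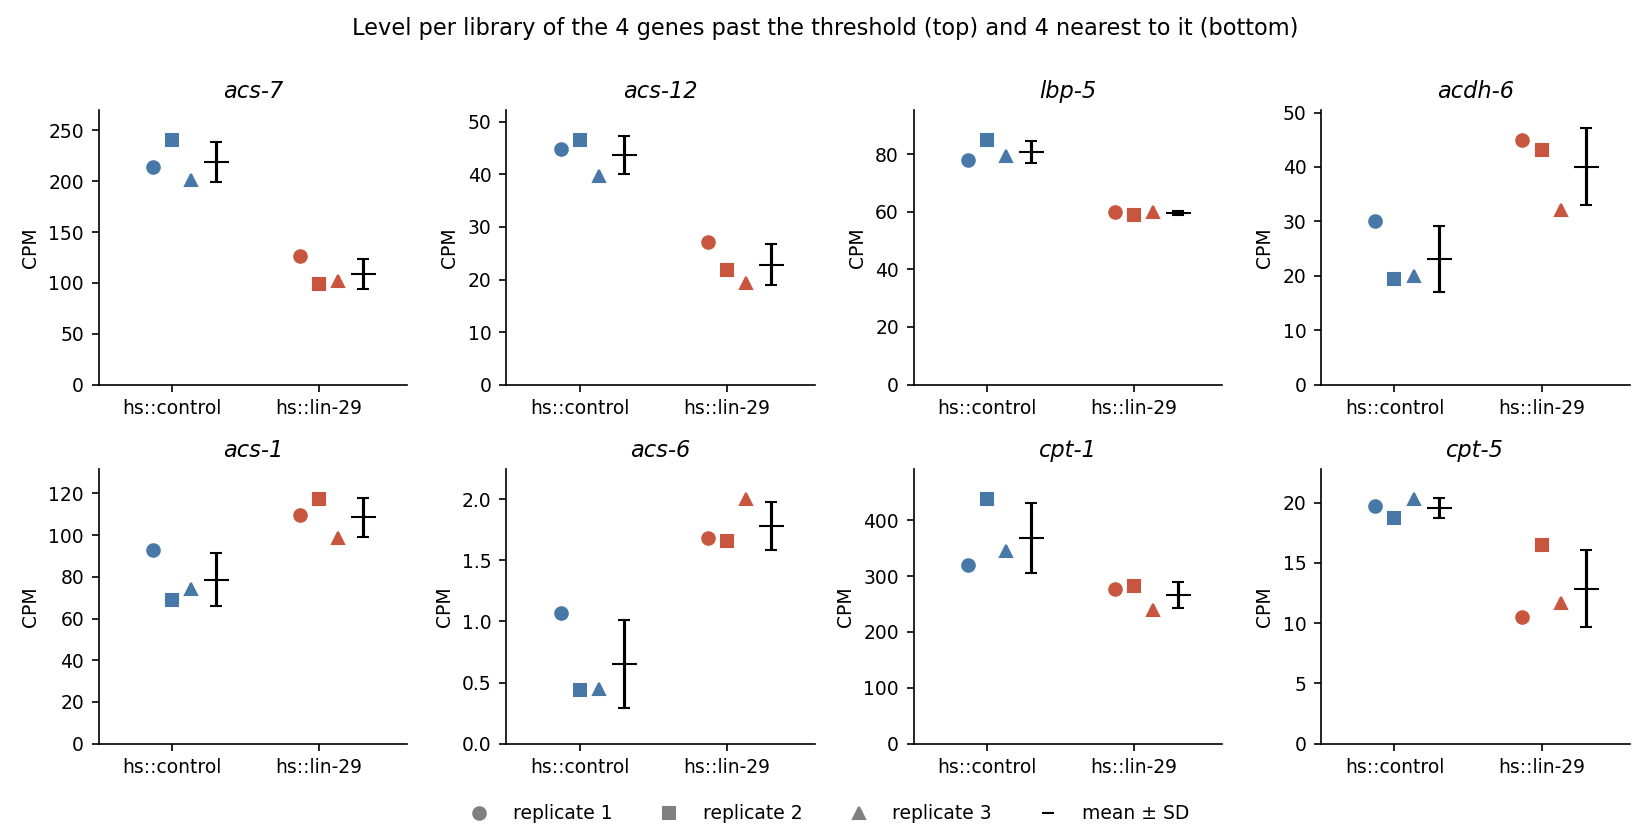
CPM in each library of the 4 genes past an adjusted p of 0.05 (top: acs-7, acs-12, lbp-5, acdh-6) and the 4 nearest to it (bottom: acs-1, acs-6, cpt-1, cpt-5), with 1 marker shape per replicate number and the mean ± SD in black. The strains separate in all 8 panels, with the widest gap for acs-7 (202 CPM or more against 126 CPM or less).

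The acyl-CoA oxidases could not be described under their family name, since acox-1 is listed at 0 in every library. The same holds for acs-19, cpt-2, lipl-5, lbp-3, lbp-9, acdh-13, acdh-12, acdh-11, acdh-2 and acdh-1. Muscle genes such as unc-15, lev-11 and act-4 are listed at 0 too, so no absence is read from a listed 0. Another 7 genes, acdh-5, acdh-8, acs-18, acs-22, cpt-3, lbp-8 and lipl-8, stayed at 11 counts or fewer per library and were left untested.

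Some genes of these families stand in the tables under sequence names and so fall outside the rule. A look-up of RefSeq symbols, made after the values were seen, found 10 such rows, of which 7 were tested. Of these 3 fell by edgeR, all of them acyl-CoA oxidases, where 4.14% of all genes tested were called lower. F59F4.1 (acox-1.6) measured 59.9, 62.03 and 56.8 CPM in hs::control against 25.9, 25.1 and 23.7 CPM in hs::lin-29, a 2.39-fold fall (log2 fold change -1.26, SE 0.09, edgeR adjusted p 0.000137). The strains lay far apart. F58F9.7 (acox-3) fell 1.64-fold, from 288 ± 13.9 to 175 ± 15.7 CPM, and C48B4.1 (acox-1.5) fell 1.66-fold, from 91.3 ± 10.3 to 54.9 ± 9.51 CPM, the latter lost without hs::lin-29 replicate 2 or 3 (adjusted p 0.0602 and 0.0576; 2.84e-05 to 0.0602 across the 14 alternatives). The other 3 acyl-CoA oxidases tested, F08A8.2 (acox-1.2), F08A8.3 (acox-1.3) and F08A8.4 (acox-1.4), had log2 fold changes of -0.65, -0.89 and -0.53 without passing by edgeR (adjusted p 0.0664, 0.194 and 0.22). F08A8.2 passed in 3 of 14 alternatives, by DESeq2 (0.00609), when hs::control replicate 2 was left out (0.0156) and when low counts were not filtered (0.0145), over a range of 0.00609 to 0.212, and F08A8.3 and F08A8.4 in none of the 14.

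Among 24 tested partners of mitochondrial and peroxisomal breakdown, 4 fell and none rose by edgeR, at an unadjusted p under 0.05, by DESeq2 or by limma-voom. The median log2 fold change was -0.01. This list also holds genes of propionate and amino acid breakdown, such as pcca-1 and bcat-1. By edgeR, 4.14% of all genes tested were called lower and 2.46% higher. maoc-1, dhs-28 and daf-22, of the peroxisomal pathway that makes ascarosides, fell 1.83-fold, 1.37-fold and 1.47-fold, and hacd-1, a hydroxyacyl-CoA dehydrogenase gene, 4.82-fold. The calls of dhs-28 and daf-22 were lost without hs::lin-29 replicate 2 or 3, and that of dhs-28 also without hs::control replicate 2 or 3 or hs::lin-29 replicate 1 (adjusted p up to 0.122; over all alternatives from 0.000418 to 0.168 for dhs-28 and from 4.89e-06 to 0.0814 for daf-22). Of 9 storage and lipolysis partners, dgat-2, which makes triglyceride, fell 2.13-fold. None of the 9 rose by edgeR, DESeq2 or limma-voom, with 2 higher at an unadjusted p under 0.05.

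Of 15 tested regulators of fat metabolism, a list not limited to fat breakdown, 2 fell and 1 rose, with a median log2 fold change of -0.21. For comparison, edgeR called 4.14% of all genes tested lower and 2.46% higher. At an unadjusted edgeR p under 0.05, 6 regulators were lower and 1 higher. The 6 were nhr-80, sbp-1, nhr-10, mdt-15, mxl-3 and klf-1. The nuclear receptor gene nhr-80 fell 6.64-fold and the SREBP gene sbp-1 1.68-fold. nhr-25 rose 1.49-fold, a call lost without each of the libraries except hs::control replicate 1 (adjusted p up to 0.132; 0.000256 to 0.132 across the 14 alternatives). nhr-49, hlh-30, daf-16 and 7 further regulators are listed at 0 in every library, so NHR-49 and HLH-30, named above for acs-2 and the fasting lipases, were not measured as transcripts. mdt-15, whose product is a coactivator of NHR-49, measured 152.8, 159.5 and 166.7 CPM in hs::control against 136.5, 134.9 and 120.8 CPM in hs::lin-29, without overlap (edgeR adjusted p 0.125, log2 fold change -0.29 with SE 0.095). mxl-3, whose product represses lysosomal lipase genes in fed worms, measured 20.7, 58.4 and 65.3 CPM against 14.4, 21.3 and 36.7 CPM, and the strains overlapped (edgeR adjusted p 0.262, log2 fold change -0.9997 with SE 0.43). Both were named after their values were seen.

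Few tissue markers passed. Over all genes tested, edgeR called 2.46% higher and 4.14% lower, and 48.56% had a log2 fold change below 0. Of 22 tested intestine markers elt-2 rose 2.69-fold and ifd-2 fell 1.57-fold. At an unadjusted edgeR p under 0.05, 6 of them were lower and 1 higher. The median log2 fold change was -0.16, with 17 below 0, and the summed level was 11811 to 14860 CPM in hs::control and 11404 to 13182 CPM in hs::lin-29. Of 16 epidermis markers without collagens nhr-25 rose, and 2 were higher and 0 lower at an unadjusted edgeR p under 0.05. Their median was 0.15 with 11 above 0, and the summed level was 6624 to 8598 CPM and 8700 to 9415 CPM, without overlap. That separation rested on dpy-5, since without it, a sum formed after the values were seen, the levels were 4339 to 5035 CPM and 4299 to 5511 CPM and overlapped. Of 9 body muscle, 12 neuron and 12 germline markers none passed by edgeR, DESeq2 or limma-voom or at an unadjusted p under 0.05, with medians of 0.07, 0.10 and 0.22. Above 0 were 7 of the 9 muscle, 12 of the 12 neuron and 10 of the 12 germline markers. The smallest p-values there belonged to tni-1 and unc-60, to unc-64 and egl-21, and to glh-4 and spn-4. The markers elt-7 of the intestine and elt-1 and elt-3 of the epidermis are listed at 0. The part of tissue composition in the changes of acs-7, acs-12, lbp-5 and acdh-6 was not tested.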

How the data were processed

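Each library has 1 table of counts per gene name, deposited by the authors as raw whole numbers. Tools listed in the submitters' processing notes, with no roles, are STAR 2.5.2b, HTSeq 0.6.1p1, bcl2fastq 2.18, R 3.3.2 and DESeq2 1.12.3, with ce10 as the build. Neither annotation release nor strand setting is given in these sources. Rows naming no gene took 39.7% to 41.8% of each library and were dropped before scaling and testing. Counting that sets aside ambiguous and multiply aligned reads can undercount genes with close copies or overlapping neighbours. Of the 46 tested members, 11 share exon positions with another protein-coding gene in the WBcel235 annotation, among them acs-7, acs-1, acs-13, acdh-3 and ech-3.

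Genes were kept by filterByExpr (minimum count 10, minimum total 15), scaled by TMM and tested with edgeR 4.0.16 (quasi-likelihood F test, robust, two-sided, strain as the only term). Adjustment was by Benjamini-Hochberg over all 13045 genes at 0.05. SE was derived from the log2 fold change and F, and 95% intervals use the test's degrees of freedom; both are approximate. CPM uses the TMM library sizes. Exon lengths come from WBcel235, another build than ce10, matched by name (ech-1 had no match), so no coordinates are given. No pair of replicates was close enough to be 1 library (chi-square of their counts at least 10.2 per degree of freedom).

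Members, lists and the rule for named genes (all calls, the 2 highest per length and the 2 smallest p per family, non-overlapping members changed 1.5-fold or more, and calls in each list or otherwise its 2 smallest p) were chosen with earlier results of these data known. acs-2, acs-3, acs-13, acs-20 and the further members given with values were named after their values were seen. On simulated counts for this comparison (13045 genes, 200 changed), 36% of genes changed 1.5-fold and 82% changed 2-fold were recovered, and 6.21% of calls were false. Alternatives were RLE and upper-quartile scaling, no filter, CPM of at least 1 in 3 libraries, DESeq2 1.42.0, limma-voom (limma 3.58.1), no robust estimation, a replicate block and each library left out. Scripts ran in R 4.3.3 and in Python 3.11.15 with scipy 1.17.1, pandas 2.3.3 and matplotlib 3.10.9.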

Additional observations from a re-analysis of the deposited data

How the results depend on the processing

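acs-7 and acs-12 kept their direction and stayed past the threshold in all 14 alternatives, and lbp-5 and acdh-6 kept their direction in all 14 and passed in 9 and 10. Members higher numbered 2 with DESeq2, limma-voom and upper-quartile scaling and 3 with no filter on low counts, and from 0 to 3 with each library left out in turn. Members lower numbered 5 with DESeq2 and with no filter, and from 2 to 4 with a library left out. The median of the cpt family was 0.197 with no filter, where cpt-3 joined it, and that of the ech family ran from -0.067 to 0.092 with a library left out; the cause of the latter was not tested. Over all genes tested, 321 were higher and 540 lower. With a library left out these counts ran from 135 to 327 and from 324 to 567.

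Same-numbered libraries deviated together with correlations of 0.01, -0.36 and 0.24, so the trial numbers were not taken as pairs. With a replicate block 206 genes were higher and 350 lower, lbp-5 did not pass (adjusted p 0.0862), 2 breakdown partners and 2 intestine markers were lower, and 0 regulators and 0 epidermis markers were higher.

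Breakdown partners lower numbered 2 to 4 with a library left out. Storage partners lower numbered 2 with DESeq2 and 1 to 2 with a library left out, and 1 was higher with no filter. Regulators higher numbered 0 to 1 with a library left out. Intestine markers lower numbered 4 with DESeq2, 5 with no filter and 1 to 2 with a library left out. Epidermis markers higher numbered 2 with DESeq2, limma-voom, upper-quartile scaling, no filter, the CPM filter and no robust estimation, and 0 to 1 with a library left out. The causes were not tested. Among members with under 60 counts in every library, acs-6, acs-10, acs-15, lipl-3 and lipl-4 had 95% intervals reaching past 1.5-fold. So did many deeper members, among them acs-2, acs-9, acs-20, cpt-4, lbp-7, lipl-1 and lipl-2. The part of depth in these widths was not tested.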
